A study of Mus musculus with 12 samples.

Results

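The effect of a 6-hydroxydopamine (6-OHDA) lesion on gene expression in the prefrontal cortex was measured by mRNA sequencing. The comparison comprised the 6 prefrontal libraries of a series of 12. Of these, 3 came from lesioned C57BL/6J mice, which the labels name as the ADHD genotype, and 3 from control mice (CTL), all at postnatal day 24 (P24). The other 6 libraries were from striatum and entered only where the regions were compared. The lesion, placed after birth, is used to model attention-deficit/hyperactivity disorder (ADHD). How much 6-OHDA was given, where and when, and how control mice were treated, is not stated in the labels. Nor do the labels tie each library to its own animal, so that p-values here reflect library-to-library spread, which may be technical. The question put to the data was which genes differed between lesioned and control prefrontal cortex, and in which functional groups they fell.

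6-OHDA is an analogue of dopamine that catecholamine neurons take up through their transporters and that kills them by oxidation. Dopamine neurons of the ventral midbrain send axons to the striatum and, more sparsely, to the prefrontal cortex, where dopamine acts on pyramidal cells and interneurons and shapes attention and working memory. The cell bodies of these neurons lie outside the cortex, so their mRNA is mostly not contained in a cortical sample. What such a sample can show is the state of the cells that the axons reach: neurons, astrocytes, oligodendrocytes and vessels.

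Total counts per library lay between 15078631 and 20925452, and 14018 genes passed the filter on low counts. The label of the region held: summed markers of excitatory cortical neurons, such as Slc17a7 and Tbr1, lay between 2665 and 2900.3 CPM (counts scaled to a common library total) in the 6 prefrontal libraries and between 152 and 978 CPM in the striatal ones. Other marker sets differed between single libraries. The olfactory bulb markers Doc2g, Cdhr1 and Eomes summed to 58.1 CPM in control library 1 and 18.99 CPM in lesioned library 2, against 4.02 to 5.59 CPM in the other prefrontal libraries. The choroid plexus gene Ttr stood at 28.8 CPM in lesioned library 2 and at no more than 0.366 CPM elsewhere in prefrontal cortex. Markers of striatal projection neurons summed to 518, 332 and 474 CPM in the lesioned libraries and to 401, 576 and 896 CPM in the controls. Oligodendrocyte markers summed to 6460.2, 5049 and 6125 CPM in the lesioned and to 6076, 7348 and 8526 CPM in the control libraries. The part of these differences in the results was not tested, and the calls that remained without control library 1 and lesioned library 2 are given below beside the lists whose number of calls changed. These marker sums were scaled over all 12 libraries; all other CPM values were scaled with TMM factors of the 6 prefrontal libraries.

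**Figure D1:**
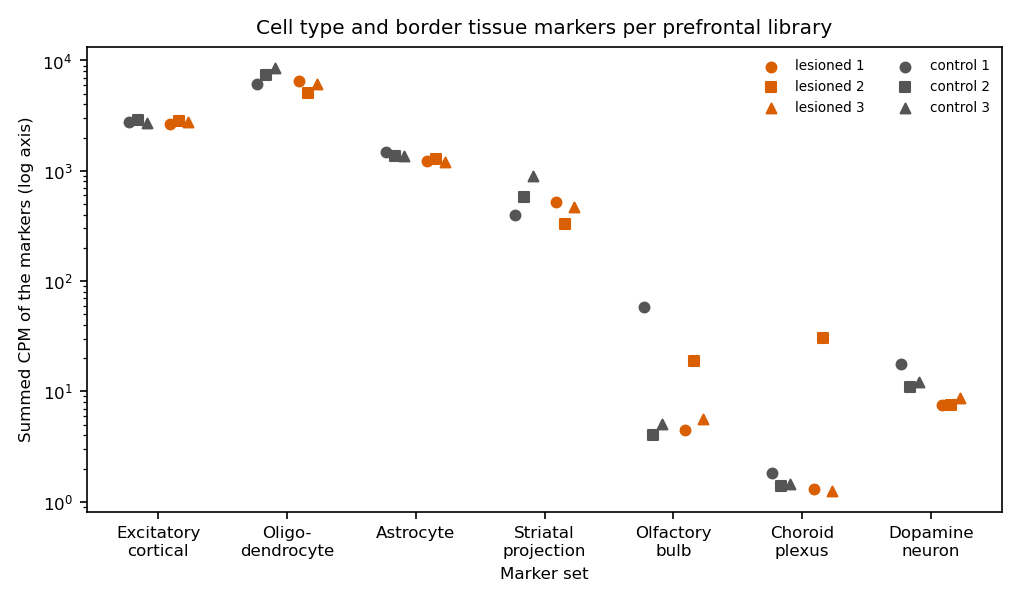
Summed CPM of cell type and border tissue markers in each prefrontal library, on a log axis; orange symbols are lesioned and grey symbols control libraries, and the symbol shape gives the library number. Cortical markers lie within 2665 to 2900.3 CPM in all 6 libraries, while the olfactory bulb markers of control library 1 (58.1 CPM) and the choroid plexus markers of lesioned library 2 (30.5 CPM) stand above the rest.

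Many genes differed by a little between lesioned and control libraries. At an adjusted p below 0.05 (quasi-likelihood test of edgeR, Benjamini-Hochberg adjustment), 803 of 14018 genes were called, or 5.73%. Of these, 484 (3.45% of genes tested) were higher and 319 (2.28%) lower in lesioned cortex. Each count of called list members below is to be read beside these shares. The median absolute log2 fold change of the called genes was 0.29, with quartiles of 0.23 and 0.43, and 25 genes changed more than 2-fold, 14 up and 11 down. The spread between libraries was small, with a biological coefficient of variation of 5.78%. In 799 of the 803 called genes all 3 lesioned libraries lay on the same side of all 3 controls, against 25.5% of all genes tested. The calls were made on these same libraries and favour such genes, so this is no separate evidence. The median log2 fold change over all genes tested was -0.01, and 48.4% of them lay above 0. Where a gene's values are followed by figures in parentheses, the first is its log2 fold change, lesioned over control, and the adjusted p is that of edgeR.

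**Figure D2:**
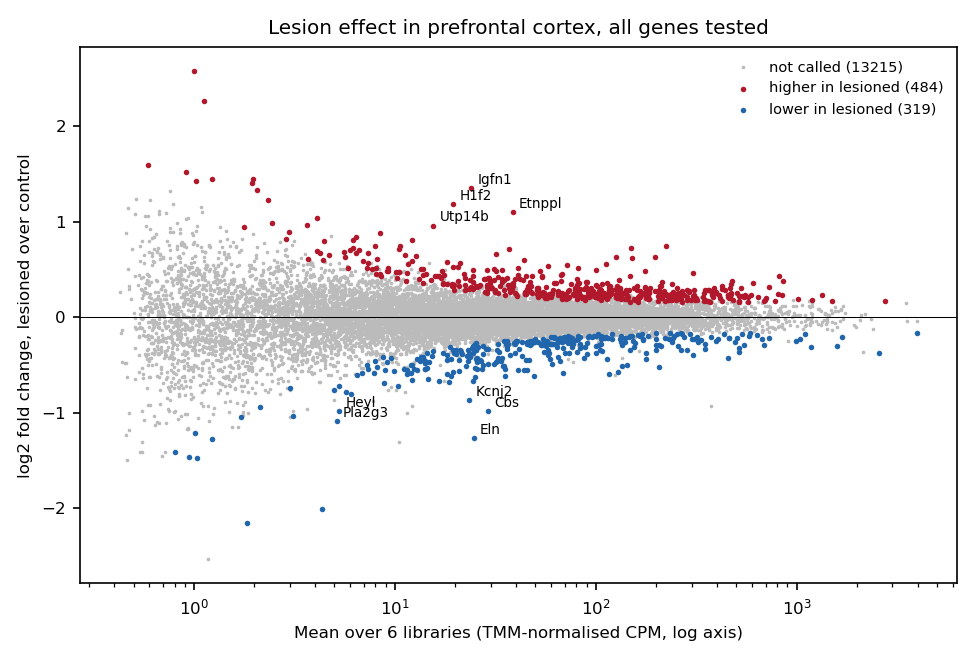
Mean level over the 6 libraries (CPM, log axis) against the log2 fold change, lesioned over control, for the 14018 genes tested; red points are the 484 genes called higher and blue points the 319 called lower. Most called genes lie within a narrow band, with a median absolute change of 0.29, and some of the largest named changes are labelled.

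The number of calls depended on single libraries. Leaving out lesioned library 1, 2 or 3 left 342, 195 or 310 calls. Without control library 1, 2 or 3 there were 536, 1010 or 670. In all 6 of these fits 163 genes stayed called, 86 of them higher. Without both libraries with olfactory bulb markers, an alternative chosen after seeing the data and called the 4-library fit below, 150 genes were called, 67 higher and 83 lower, and 137 of these were among the 803. Of 152 called genes that the naming rules picked, 66 were called in the 4-library fit. In a fit of all 12 libraries, whose biological coefficient of variation was 11.3%, 30 genes were called, all of them among the 803. That fit kept 21 of the 152 named calls and lost 131, among them Ddc, Ryr2, Itpr1, Slit2, Dcc, Tsc22d3 and Sgk1. The rises were more frequent among long transcripts: 6.75% of genes in the third with the longest transcripts (4410 bases and more) were called higher, against 1.37% in the third with the shortest, while the calls of lower genes were 1.95% and 2.35%. Once GC content and transcript length were corrected for, the split moved from 60.3% higher to 50.2% higher (355 higher and 352 lower), and 314 of the 484 rises and 279 of the 319 falls kept their calls.

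Within the dopamine system 1 synthesis enzyme was called, lower, and neither monoamine oxidase gene passed the test. Ddc, on chr11:11814101-11898144 (GRCm38.p6, RefSeq), encodes the decarboxylase that turns L-DOPA into dopamine. It stood at 4.499, 3.84 and 4.95 CPM in the lesioned libraries and at 8.24, 7.101 and 7.76 CPM in the controls. All lesioned libraries lay below all controls, and the lesioned level of Ddc was 0.574 of the control level (log2 fold change -0.80, SE 0.14, adjusted p = 0.00629 by edgeR). The call stood without any single library, and was lost without both libraries with olfactory bulb markers (log2 fold change -0.65, adjusted p = 0.110).

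Th, on chr7:142892779-142899995, encodes tyrosine hydroxylase, the rate-limiting enzyme of dopamine and noradrenaline synthesis. Its counts were 43, 50 and 45 in the lesioned libraries and 166, 50 and 52 in the controls. The gap rested on control library 1, which also held the most olfactory bulb markers, and olfactory bulb is a tissue with dopamine neurons of its own; that part was not tested. Th was not called (log2 fold change -0.96, SE 0.31, adjusted p = 0.0962), and without control library 1 its log2 fold change was -0.35 (adjusted p = 0.438). Without control library 2 it was called (log2 fold change -1.20, adjusted p = 0.0232). Th and Ddc are also expressed by other monoamine neurons, and noradrenergic axons use the same enzymes.

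The monoamine transporter genes Slc6a3, Slc18a2 and Slc6a2 were near the floor of 3 counts per library. The dopamine transporter gene Slc6a3 had 4, 4 and 7 counts in the lesioned and 7, 4 and 2 in the control libraries. The vesicular transporter gene Slc18a2 had 6, 4 and 4 counts against 13, 2 and 5. The noradrenaline transporter gene Slc6a2 had 2 counts in lesioned library 1 and 0 elsewhere. Of 10 tested genes of dopamine synthesis, transport and breakdown, Ddc alone was called. The monoamine oxidase genes did not pass the test: Maoa had a log2 fold change of -0.12 (SE 0.06) and Maob of -0.18 (SE 0.09).

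Dopamine receptors did not pass the test either. Drd1, the main D1-class receptor, stood at 22.996, 12.7 and 16.97 CPM in lesioned and 13.1, 21.98 and 30.1 CPM in control libraries (log2 fold change -0.28, SE 0.24, adjusted p = 0.572). Drd2, the D2 receptor, stood at 7.799, 2.23 and 5.98 and 3.81, 8.69 and 18.1 CPM (-0.88, SE 0.45, adjusted p = 0.296). In both genes the lowest lesioned library was library 2 and the highest control library was library 3, which is also the order of the summed striatal markers. Without control library 1 Drd2 was called (log2 fold change -1.30, adjusted p = 0.0405). Drd5, the other D1-class receptor, was at 3.497 ± 0.371 against 2.58 ± 0.686 CPM (SD, n = 3 each; log2 difference 0.45, adjusted p = 0.252). Drd3 had at most 3 counts and Drd4 at most 17 in any prefrontal library, too few for the filter. Over 24 tested dopamine receptor and cAMP signalling genes the median log2 fold change was -0.11, 20 lay below 0, and Arpp21, a cAMP-regulated phosphoprotein, was the single call (-0.22, SE 0.05, adjusted p = 0.0295; adjusted p between 0.0586 and 0.168 without lesioned library 1, 2 or 3, 0.0771 without control library 3 and 0.110 in the 4-library fit, which called 2 other members lower). Without control library 1, 6 members of this list were called lower, and without control library 2 there were 2.

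Markers of striatal projection neurons were mostly lower in value as well. Of 18 tested, 17 were below 0, the median was -0.37, and Gpr52 and Meis2 were called lower. Of the fits without a lesioned library, 1 was called without library 1 or 3 and none without library 2. Without control library 3, which had the highest marker sum, the median was -0.08, and leaving out control library 1 gave -0.66 with 10 called lower. The 4-library fit called 3 lower, with a median of -0.50.

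The rises with the smallest p included genes of calcium release, presynaptic function and astrocyte metabolism. Igfn1, on chr1:135953205-136040925, encodes an immunoglobulin and fibronectin domain protein known from muscle. It stood at 37.1, 34.1 and 31.8 CPM in the lesioned libraries and 11.6, 12.98 and 15.97 CPM in the controls, and it rose 2.56-fold (log2 fold change 1.36, SE 0.11, adjusted p = 9.24e-05 by edgeR). The lowest lesioned library stood well above the highest control, though the gene was picked among those whose groups do not overlap. Etnppl, an astrocyte enzyme that breaks down phosphoethanolamine, on chr3:130617448-130635750, stood at 50.5, 47.6 and 59.6 CPM against 22.2, 28.7 and 22.9 CPM and rose 2.14-fold (1.10, SE 0.10, adjusted p = 1.83e-04). Rims3, a small protein of the presynaptic active zone, on chr4:120854779-120896580, stood at 232, 237 and 249.9 CPM against 161, 159 and 144 CPM (0.63, SE 0.05, adjusted p = 1.23e-04). In each of these genes the lesioned libraries differed from one another by less than the gap to the nearest control. All were picked by p or fold change among genes whose groups do not overlap. That choice favours such gaps, so they are no separate evidence.

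Both channel families that release calcium from the endoplasmic reticulum were among the 10 rises with the smallest p. Ryr2, a ryanodine receptor, went from 256 ± 5.17 to 353 ± 14.1 CPM (SD, n = 3 each; log2 difference 0.46, SE 0.05, adjusted p = 2.09e-04). Itpr1, the receptor for inositol trisphosphate, went from 696 ± 48.4 to 943 ± 11.8 CPM (0.44, SE 0.05, adjusted p = 4.75e-04). The ubiquitin ligase gene Mycbp2 went from 415 ± 16.7 to 538 ± 8.66 CPM (0.38, SE 0.04). The cell adhesion gene Cntnap5a went from 47.2 ± 2.76 to 68.4 ± 1.44 CPM (0.54, SE 0.06). All 4 are very large genes, and all 4 kept their calls with the correction for GC content and length and without any single library.

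Other large rises had unrelated functions. Trf, the iron carrier transferrin, which oligodendrocytes make in the brain, stood at 198, 169 and 191 CPM in the lesioned and 94.8, 111 and 132 CPM in the control libraries (0.73, SE 0.09, adjusted p = 0.00106). Of 19 other tested genes of myelin and mature oligodendrocytes Mbp alone was called, lower (-0.37, SE 0.10, adjusted p = 0.0473), with groups that overlapped. Mbp was not called with upper-quartile scaling, by DESeq2 or limma-voom, or without lesioned library 2 or 3 or control library 2 or 3 (adjusted p = 0.216, 0.120, 0.0604 and 0.149). Utp14b, a gene for a ribosome assembly factor, rose from 10.6 ± 1.83 to 20.5 ± 2.22 CPM (0.96, SE 0.13). Utp14b is an intronless copy of Utp14a, so that its reads could be divided between the copies in a way that the labels do not state.

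The falls with the smallest p included enzymes of small molecule metabolism. Cbs, on chr17:31612623-31637233, encodes cystathionine beta-synthase, which joins homocysteine and serine in the first step of transsulfuration. It stood at 18.05, 21.9 and 18.6 CPM in the lesioned libraries and 39.5, 35.3 and 40.6 CPM in the controls. Lesioned levels of Cbs were 0.507 of control (log2 fold change -0.98, SE 0.09, adjusted p = 1.42e-04), and no other of the 24 tested genes of the methionine cycle, transsulfuration and serine synthesis was called (median -0.03). Smox and Sat1, the enzymes that oxidise spermine and acetylate polyamines for their breakdown, fell together. Smox stood at 29.7, 28.3 and 26.01 against 44.9, 41.6 and 42.1 CPM (-0.61, SE 0.07, adjusted p = 4.81e-04) and Sat1 at 28.5, 26.5 and 31.8 against 42.3, 42.1 and 41.7 CPM (-0.54, SE 0.07, adjusted p = 0.00136). They were the only calls among 16 tested polyamine genes, whose median was -0.04, and they stayed the 2 calls without any single library.

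Slc16a1, the lactate transporter MCT1, fell from 59.95 ± 7.36 to 39.1 ± 2.497 CPM (-0.61, SE 0.08, adjusted p = 0.00133). Pygm, a glycogen phosphorylase that astrocytes express, fell from 40.6 ± 0.329 to 28.5 ± 0.781 CPM (-0.51, SE 0.06, adjusted p = 7.15e-04). In the list of 26 glycolysis, lactate and glucose transport genes these were the 2 falls. The phosphofructokinase genes Pfkl and Pfkp were the 2 rises, and the median was -0.02. Without lesioned library 2 or 3 and in the 4-library fit neither rise was called, and without lesioned library 1 or control library 3 there was 1.

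Structural and developmental genes were among the other falls. Tubb2a, a beta-tubulin abundant in growing neurons, stood at 387, 404 and 373 CPM against 512, 510.3 and 539 CPM (-0.42, SE 0.05, adjusted p = 3.40e-04). Marcksl1, a regulator of actin, stood at 115, 122 and 121 against 168, 162 and 174 CPM (-0.50, SE 0.05, adjusted p = 2.09e-04). Among 20 tested genes of immature neurons and proliferation, 5 fell (Sox4, Tubb3, Nnat, Cd24a and Marcksl1), against 2.28% called lower of all genes, none rose, and the median was -0.26. Dcx, the classical marker of migrating young neurons, did not pass the test (-0.11, SE 0.09, adjusted p = 0.551). The count was 4 to 7 over the fits without 1 library and 4 in the 4-library fit. Mtss2, a membrane-bending protein of dendrites (-0.52, SE 0.05), and Ccar1, a transcriptional coactivator (-0.48, SE 0.06), also fell. Pla2g3, a secreted phospholipase, fell from 6.96 ± 0.990 to 3.28 ± 0.552 CPM (-1.09, SE 0.17), the inward rectifier gene Kcnj2 from 32.2, 33.2 and 25.2 to 17.6, 15.2 and 17.03 CPM in the 3 libraries of each group (-0.86, SE 0.11), and the slow troponin C gene Tnnc1 from 22.9 ± 0.757 to 14.3 ± 0.863 CPM (-0.67, SE 0.08).

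**Figure D3:**
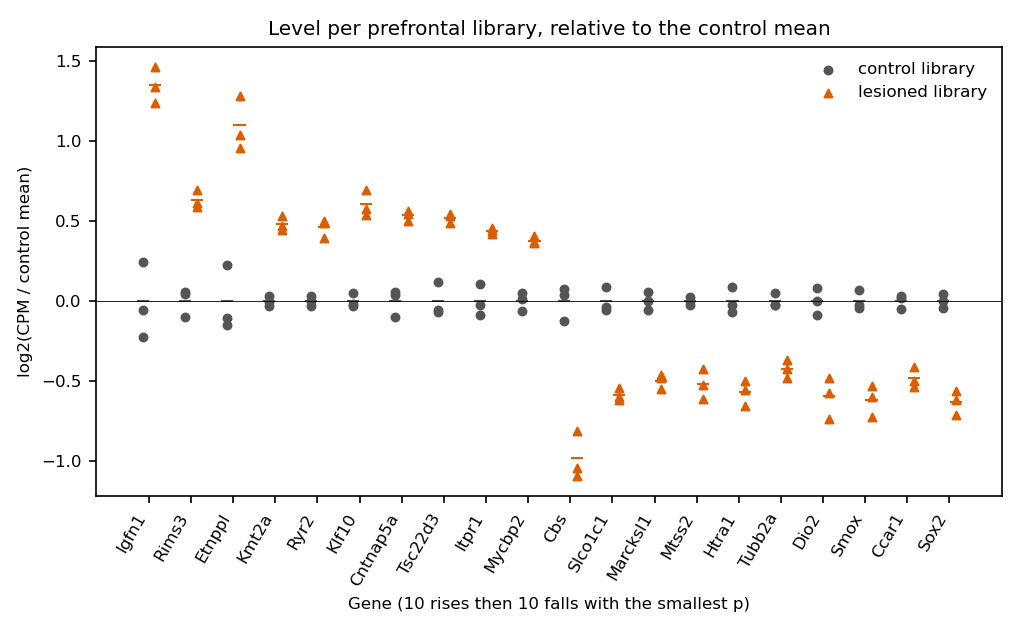
Level of each gene in each of the 6 libraries as log2(CPM over the control mean); grey circles are control and orange triangles lesioned libraries, and the short lines are group means. The 10 rises and 10 falls with the smallest p are shown; they were picked among genes whose groups do not overlap, so the gap between the groups follows from the choice.

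Genes of blood and vessel walls were among the larger falls. The haemoglobin genes Hbb-bs and Hba-a1, picked out after their values were seen, had the lowest log2 fold changes of all calls. Hbb-bs stood at 3.399, 1.26 and 0.460 CPM in the lesioned and 10.2, 8.94 and 1.83 CPM in the control libraries (-2.01, adjusted p = 0.0473), and Hba-a1 at 1.3997, 0.344 and 0.230 against 4.29, 3.98 and 0.717 CPM (-2.15, adjusted p = 0.0489). They mark red blood cells, their groups overlapped, and near-identical gene copies make their counts uncertain. Eln, which encodes elastin of vessel walls, stood at 15.9, 14.9 and 12.3 CPM in lesioned and 26.4, 21.7 and 56.6 CPM in control libraries (-1.26, SE 0.27, adjusted p = 0.0157). Its highest value was in control library 3, without which the log2 fold change was -0.74. The call was lost without lesioned library 2 or 3 (adjusted p = 0.0810 and 0.0835). Eln was also not called by DESeq2 or in the fit of all 12 libraries.

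Of the linker histone genes H1f0, H1f2 and H1f4 rose. H1f2 and H1f4 encode linker histones of the replication-dependent class, which sit where DNA enters and leaves the nucleosome and compact chromatin. Their promoters are printed because the 2 genes moved together and share their layout. The 130 bases before each start are given 5′ to 3′ on the gene's strand from RefSeq (GRCm38.p6), with the H1 box AAACACA and the CCAAT box in capitals.
H1f2, chr13:23738677-23738806, plus strand: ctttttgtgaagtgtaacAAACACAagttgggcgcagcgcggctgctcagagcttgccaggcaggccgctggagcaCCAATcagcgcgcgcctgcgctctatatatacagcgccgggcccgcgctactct
H1f4, chr13:23622559-23622688, minus strand: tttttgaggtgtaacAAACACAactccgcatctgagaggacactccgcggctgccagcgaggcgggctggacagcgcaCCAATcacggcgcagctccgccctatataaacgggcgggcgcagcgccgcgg
The H1 box begins 112 bases before the start in H1f2 and 115 in H1f4, and the CCAAT box 54 and 52 bases before it. On either strand and within 250 bases before the start, AAACACA occurs in 6.25% and CCAAT in 33.8% of 32851 mouse promoters. A match is a description, not a site or a cause.

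H1f2, on chr13:23738807-23739531, stood at 24.7, 25.7 and 30.8 CPM in the lesioned libraries and 10.2, 10.2 and 15.6 CPM in the controls. The groups did not overlap, which was a condition for naming it, and H1f2 rose 2.27-fold (1.19, SE 0.14, adjusted p = 7.15e-04 by edgeR). H1f4, on chr13:23621777-23622558, had 36, 34 and 32 counts against 6, 6 and 8 (2.27, SE 0.32, adjusted p = 0.00164). Its levels were low, but no lesioned library came near a control. DESeq2 gave no adjusted p for it. Of 16 tested linker and core histone genes, 4 rose, against 3.45% called higher of all genes, none fell, and the median was 0.04. The others were H1f0, the replication-independent linker histone of resting cells (0.29, SE 0.06, adjusted p = 0.0142), and the core histone gene H2bc6 (0.89, SE 0.22, adjusted p = 0.0321). Without lesioned library 2 or 3, H1f0 and H2bc6 were not called, which left 2, and H1f2 and H1f4 were called in every fit that left out 1 library and were the 2 calls of the 4-library fit. Transcripts of the replication-dependent class mostly lack a poly(A) tail, and the libraries were made from purified mRNA. These genes are close paralogs, so that counts of single members are uncertain.

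Genes listed for the methylation of histone H3 at lysine 4, a mark of active promoters and enhancers, also included rises. Kmt2a, on chr9:44803355-44881352, stood at 212, 204 and 201 CPM in lesioned and 151, 147 and 144 CPM in control libraries (0.48, SE 0.05, adjusted p = 1.94e-04). Kmt2c went from 104 ± 0.831 to 129 ± 2.97 CPM (0.32, SE 0.05). The list is not limited to enzymes that add this mark. Of its 20 tested genes, 4 rose (Kmt2a, Kmt2c, Kmt2d and Ash1l), against 3.45% called higher of all genes, none fell, and the median was 0.07. Among 30 other chromatin regulators 3 rose (Ep300, Chd5 and Chd6), with a median of 0.04. All are long genes. With the correction for GC content and length Kmt2a kept its call (log2 fold change 0.31, adjusted p = 0.00172), while Kmt2c (0.16, adjusted p = 0.0546), Kmt2d (0.05, adjusted p = 0.620), Ash1l (0.13, adjusted p = 0.141), Ep300 (0.12), Chd5 (0.08) and Chd6 (0.07) were no longer called, and the median of the other regulators became -0.02. Without lesioned library 1 or 2 the count of H3K4 methylation genes was 2, and none of the other regulators was called without lesioned library 1, 2 or 3 or control library 1 or 3, against 2 without control library 2. The 4-library fit called Kmt2a alone of the H3K4 list (adjusted p = 0.0667 for Kmt2c) and none of the other regulators.

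Genes that neurons switch on with activity were mixed. Of 31 tested, 10 rose (Junb, Arc, Nr4a1, Ier5, Dusp1, Dusp5, Dusp6, Trib1, Per1 and Sik1), Egr3 and Homer1 fell, and the median log2 fold change was 0.22, beside 3.45% called higher and a median of -0.01 over all genes tested. Nr4a1, an orphan nuclear receptor, stood at 142, 135 and 122 CPM in lesioned and 84.98, 80.7 and 107 CPM in control libraries (0.55, SE 0.09, adjusted p = 0.00360). Dusp5, a phosphatase that turns off ERK kinases, rose from 8.91 ± 1.04 to 15.6 ± 2.2995 CPM (0.81, SE 0.13), and Trib1, a pseudokinase, from 24.7 ± 3.03 to 38.99 ± 2.53 CPM (0.67, SE 0.09). Klf10, a zinc finger factor induced by growth factors and among the 10 rises with the smallest p, stood at 52.1, 56.5 and 50.9 against 34.6, 34.3 and 36.2 CPM (0.60, SE 0.06, adjusted p = 2.53e-04). Trib1 and Klf10 were called in the 4-library fit, while Nr4a1 (adjusted p = 0.0517) and Dusp5 (adjusted p = 0.0546) were not.

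Egr3, a transcription factor induced by synaptic input, went the other way, with 143, 157 and 152 CPM in lesioned and 186, 225 and 198 CPM in control libraries (-0.43, SE 0.07, adjusted p = 0.00277). Homer1, a scaffold of postsynaptic glutamate receptors, stood at 258, 267 and 266 against 330.1, 405 and 306 CPM (-0.40, SE 0.08, adjusted p = 0.0104), and missed the threshold without lesioned library 2 (adjusted p = 0.0627) and in the 4-library fit (adjusted p = 0.0540). The best-known members of the group were not called: the log2 fold change was 0.23 for Fos (SE 0.08, adjusted p = 0.122), 0.11 for Egr1 (SE 0.06) and -0.18 for Npas4 (SE 0.10). Arc, which encodes a synaptic capsid-like protein, stood at 277, 298 and 267 against 112, 152 and 240.4 CPM, with control library 3 close below the lesioned libraries (0.75, SE 0.18, adjusted p = 0.0291). Arc was not called by DESeq2 or without lesioned library 1, 2 or 3 or control library 2 (adjusted p = 0.0731, 0.136, 0.0824 and 0.0608), nor in the 4-library fit (adjusted p = 0.139). Without lesioned library 2 or 3, 3 or 6 of the group rose, and without both libraries with olfactory bulb markers 2 rose and 1 fell.

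Clock genes that were called were all repressors within the clock, and all rose. Of 21 tested, 6 rose (Per1, Per2, Nr1d1, Ciart, Bhlhe40 and Bhlhe41), against 3.45% called higher of all genes, none fell, and the median was 0.07. The core clock factors CLOCK and BMAL1 act through the E-box CACGTG, so it was searched in the promoters of Per1, Nr1d1, Ciart and Bhlhe41; Per2 and Bhlhe40 were not searched. The stretches that hold it are shown, 5′ to 3′ on the gene's strand from RefSeq (GRCm38.p6), with the E-box in capitals.
Ciart, chr3:95882229-95882358, minus strand: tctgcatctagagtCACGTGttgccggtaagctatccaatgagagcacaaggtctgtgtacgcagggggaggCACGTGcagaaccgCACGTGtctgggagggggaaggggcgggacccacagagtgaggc
Per1, chr11:69098769-69098839, plus strand: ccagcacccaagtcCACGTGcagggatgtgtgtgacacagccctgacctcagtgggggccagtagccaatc
Bhlhe41, chr6:145865520-145865590, minus strand: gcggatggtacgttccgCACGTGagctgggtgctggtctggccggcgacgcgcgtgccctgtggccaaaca
Ciart held 3 matches, 116, 58 and 44 bases before its start, Per1 held 1 at 166 in 1 of its 2 promoters, and Bhlhe41 held 1 at 153. The 250 bases before the start of Nr1d1 held none, and 6.02% of all 32851 promoters held at least 1. These matches are letters in a window and say nothing of binding in these samples.

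Bhlhe40, a repressor that competes for E-boxes, stood at 198, 184 and 168 CPM in the lesioned and 126, 132 and 99.9 CPM in the control libraries (0.62, SE 0.09, adjusted p = 0.00170). Per1, a core repressor that glucocorticoids also induce, stood at 180.4, 158 and 122 against 111, 95.9 and 88.99 CPM (0.64, SE 0.11, adjusted p = 0.00645). Lesioned library 1 was the highest and library 3 the lowest of its group, and without lesioned library 2 the adjusted p was 0.0503. Ciart, a repressor of CLOCK and BMAL1, rose from 16.98 ± 2.63 to 25.2 ± 2.67 CPM (0.57, SE 0.11). Nr1d1, which encodes REV-ERB alpha, went from 102 ± 1.01 to 119.6 ± 1.78 CPM (0.23, SE 0.05). Arntl, which encodes BMAL1, was at -0.22 (SE 0.08, adjusted p = 0.135), and Dbp, a clock output gene, at 0.07 (SE 0.06); neither passed the test. Without lesioned library 1, 2 or 3 the count of called members was 2, 2 or 4, and it was 3 in the 4-library fit, without Ciart (adjusted p = 0.0540) and Nr1d1 (adjusted p = 0.158). The labels do not state the time of day at which tissue was taken.

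Glucocorticoid-responsive genes did not move as a group. Tsc22d3, the glucocorticoid-induced leucine zipper, stood at 96.5, 93.7 and 97.5 CPM in lesioned and 64.3, 72.5 and 63.9 CPM in control libraries (0.52, SE 0.06, adjusted p = 4.75e-04), and the kinase gene Sgk1 rose from 58.4 ± 3.88 to 85.2 ± 8.69 CPM (0.55, SE 0.07, adjusted p = 0.00145). Both were called without any single library. The metallothionein gene Mt1 (-0.28, SE 0.07) and the sulfotransferase gene Sult1a1 (-0.54, SE 0.10) fell, so that 2 of 19 tested rose and 2 fell, with a median of 0.07. The call of Mt1 was lost without any of lesioned libraries 1, 2 and 3 or control library 3 (adjusted p between 0.0665 and 0.145 for the lesioned, 0.0699 for the control) and in the 4-library fit (adjusted p = 0.0795), which called 3 members higher and 1 lower. Fkbp5, a standard readout of glucocorticoid action, did not pass the test (0.03, SE 0.11, adjusted p = 0.917).

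Ion channel genes that were called were mostly higher, beside 3.45% called higher and 2.28% called lower of all genes. Among 53 tested potassium channel genes 11 rose, among them Kcna1, Kcna2, Kcna6, Kcnc1, Kcnh5, Kcnh7, Kcnj10, Kcnma1 and Kcnq3, while Kcnj2 and Kcnk1 fell, and the median was 0.10. Among 31 sodium, calcium and HCN channel genes 8 rose, among them Scn1a, Scn8a, Cacna1a, Cacna1b, Cacna1d, Cacna1e and Cacna1g, none fell, and the median was 0.12. Scn8a, the sodium channel of the axon initial segment, stood at 589, 589 and 572 CPM in lesioned and 456, 495 and 459.6 CPM in control libraries (0.31, SE 0.04, adjusted p = 0.00199). Kcnh5, of the EAG family, rose from 28.3 ± 2.87 to 40.02 ± 2.02 CPM (0.50, SE 0.08). Kcnj10, the Kir4.1 channel by which astrocytes and oligodendrocytes clear potassium, stood at 239, 244 and 241 against 173, 196 and 191 CPM (0.37, SE 0.05, adjusted p = 0.00171), while its relative Kcnj2 fell (-0.86, SE 0.11).

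The 19 channel rises were small, at most 1.41-fold (Kcnh5), and the counts shifted with the processing. With the correction for GC content and length 6 potassium channel genes and 7 of the other channel genes rose, and upper-quartile scaling gave 14 and 10. The potassium channel rises numbered 6, 4 and 5 without lesioned library 1, 2 and 3, and 6, 18 and 7 without control library 1, 2 and 3. The sodium and calcium channel rises numbered 5 without lesioned library 2 and 13 without control library 2. In the 4-library fit 2 of each list rose, Kcnh5 and Kcnj10 among them, and Scn8a missed the threshold (adjusted p = 0.0677).

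Genes of presynaptic release were called higher in the fit of the 6 libraries. Of 37 tested genes 9 rose (Syt2, Snap25, Vamp1, Unc13a, Unc13b, Rims3, Pclo, Nrxn3 and Rph3a) and none fell, against 3.45% called higher of all genes, with a median of 0.05. DESeq2, limma-voom and the fit without control library 2 each called 1 member lower. Vamp1, a synaptobrevin of fast synapses, stood at 132, 125 and 138 CPM in lesioned and 103, 103 and 109 CPM in control libraries (0.32, SE 0.05, adjusted p = 0.00388). Nrxn3, a presynaptic adhesion protein, went from 243 ± 14.05 to 295 ± 7.15 CPM (0.28, SE 0.05) and missed the threshold without lesioned library 2 (adjusted p = 0.0599). Pclo, a giant active zone scaffold, went from 414 ± 43.2 to 529 ± 20.4 CPM (0.35, SE 0.06), and missed it with the GC and length correction (0.17, adjusted p = 0.0697), under which 4 of the list rose. The rises numbered 5, 2 and 5 without lesioned library 1, 2 and 3, and 2 in the 4-library fit, in which Rims3 and Vamp1 kept their calls.

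The postsynaptic side was divided. Of 42 glutamate receptor and scaffold genes 5 rose (Gria4, Grm2, Grm3, Grm7 and Shank1), 4 fell (Grin2c, Dlg4, Homer1 and Dlgap3), and the median was 0.01, or -0.04 with the GC and length correction. Dlg4, which encodes PSD-95, the main scaffold of excitatory synapses, stood at 951, 973 and 967 CPM in lesioned and 1122, 1132 and 1119 CPM in control libraries (-0.22, SE 0.04, adjusted p = 0.00452). The change was small but exceeded the spread, which was 11.3 CPM in the lesioned and 6.69 CPM in the control group. Nrgn, the calmodulin-binding protein neurogranin of dendritic spines, stood at 1366, 1411 and 1496 against 1749.5, 1754 and 1736 CPM (-0.29, SE 0.04, adjusted p = 0.00181). Without lesioned library 1, 2 or 3 the glutamate list held 1, 0 or 0 rises and 3, 1 or 2 falls, without control library 1 it held 2 of each, and without control library 3 it held 2 rises and 5 falls. The 4-library fit called no member of the glutamate list in either direction, with adjusted p = 0.106 for Dlg4, and Nrgn missed the threshold as well (adjusted p = 0.0527). Of 19 GABA receptor and chloride transporter genes Slc12a5 rose and Gabrg1 fell, with a median of 0.03; Slc12a5 was not called without lesioned library 2, nor Gabrg1 without lesioned library 1 or 2, and neither in the 4-library fit.

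Some axon guidance genes rose. Of 44 tested 6 rose (Sema5a, Sema7a, Plxna2, Slit2, Dcc and Epha6) and none fell, against 3.45% called higher of all genes, with a median of 0.04. Slit2, a repellent ligand of Robo receptors, stood at 60.8, 62.7 and 62.6 CPM in lesioned and 44.7, 46.7 and 46.4 CPM in control libraries (0.43, SE 0.05, adjusted p = 7.94e-04). Dcc, the netrin receptor that guides mesocortical dopamine axons among others, went from 23.9 ± 1.27 to 33.6 ± 2.19 CPM (0.49, SE 0.08, adjusted p = 0.00281). Both were called without any single library, and Dcc missed the threshold without both libraries with olfactory bulb markers (adjusted p = 0.0700). The rises numbered 3, 2 and 2 without lesioned library 1, 2 and 3, and 3 without control library 1, while Slit2 was the 1 rise of the 4-library fit.

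Extracellular matrix genes went both ways, with 4 of 38 rising, 6 falling and a median of -0.07. The falls included lecticans and link proteins of the neural matrix: Bcan, Ncan and Hapln1 besides Fn1, Timp4 and Htra1. Ncan, which encodes neurocan, went from 363 ± 8.22 to 308 ± 8.71 CPM (-0.24, SE 0.04, adjusted p = 0.00735). Hapln4, a link protein of perineuronal nets around fast inhibitory synapses, rose from 99.6 ± 6.79 to 127 ± 1.51 CPM (0.36, SE 0.06, adjusted p = 0.00294), with the collagen genes Col12a1, Col19a1 and Col25a1. Htra1, a secreted serine protease that astrocytes make, stood at 105, 109 and 98.3 against 165, 148 and 152 CPM (-0.57, SE 0.06, adjusted p = 2.09e-04), and Timp4, an inhibitor of metalloproteases, at 21.6, 18.8 and 20.8 against 30.9, 29.1 and 28.2 CPM (-0.53, SE 0.08). Without lesioned library 2 or 3 or control library 1 the falls numbered 3. The rises numbered 1 without lesioned library 2 and 2 without lesioned library 1 or 3 or control library 1. In the 4-library fit 1 rose and 1 fell, which was Htra1, while Ncan, Hapln4 and Timp4 missed the threshold (adjusted p = 0.0656, 0.0664 and 0.0569).

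Astrocyte markers fell most often among the cell type lists. Of 20 tested 9 fell (Aqp4, Slc1a2, Slc1a3, Gjb6, Fgfr3, Sox9, Acsbg1, Mlc1 and Hepacam), against 2.28% of all genes, Slc4a4 rose, and the median was -0.15. Fgfr3, a fibroblast growth factor receptor, stood at 101, 98.7 and 91.4 CPM in lesioned and 139.9, 124 and 128 CPM in control libraries (-0.43, SE 0.06, adjusted p = 0.00145). Sox9, a transcription factor of astrocyte identity, stood at 14.6, 17.2 and 18.5 against 22.5, 26.8 and 25.2 CPM (-0.56, SE 0.10, adjusted p = 0.00630). Hepacam, a junction protein of astrocyte endfeet, went from 93.4 ± 1.499 to 75.4 ± 2.99 CPM (-0.31, SE 0.05). The glutamate transporter genes Slc1a2 (-0.17, SE 0.04) and Slc1a3 (-0.23, SE 0.05) were also lower, as was the water channel gene Aqp4 (-0.35, SE 0.07). The summed level of the astrocyte markers used to check the samples was 1219, 1281 and 1212 CPM in the lesioned and 1493, 1371 and 1365 CPM in the control libraries, with no overlap. This sum holds the called genes Aqp4, Slc1a3 and Fgfr3, so it is no separate check. Gja1, also in the sum and scaled likewise, stood at 205, 227 and 216 CPM in lesioned and 209, 206 and 202 CPM in control libraries. Its other members, Aldh1l1 and Gfap, are given below. In bulk tissue, fewer cells of a type and less RNA per cell cannot be told apart.

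Not all astrocyte genes followed. Aldh1l1, a general astrocyte marker, was at 65.1 ± 1.88 against 67.9 ± 1.29 CPM (-0.06, SE 0.05, adjusted p = 0.551), Gfap at -0.14 (SE 0.09), and Etnppl and Kcnj10 rose as given above. None of 15 tested genes of reactive astrocytes was called by edgeR, with 5 at an unadjusted p below 0.05 and a median of -0.08, which was above 0 without lesioned library 1 or 3 or control library 1 or 3 (0.01 to 0.11), and DESeq2 called 1 higher and 1 lower, the 4-library fit 1 lower. The astrocyte falls numbered 4, 5 and 4 without lesioned library 1, 2 and 3, and 4 without both libraries with olfactory bulb markers.

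Transcription factors of neural progenitors and glia fell with them. Sox2, on chr3:34649995-34652461, stood at 18.6, 19.9 and 20.7 CPM in lesioned and 30.5, 29.6 and 31.4 CPM in control libraries (-0.63, SE 0.07, adjusted p = 5.85e-04). Lhx2, which specifies cortical identity, went from 66.4 ± 1.42 to 51.1 ± 2.04 CPM (-0.38, SE 0.05). Of 28 Notch pathway genes 5 fell (Notch1, Heyl, Nrarp, Maml3 and Sox21), against 2.28% called lower of all genes, Hes1 rose, and the median was -0.15. Nrarp, a target and feedback inhibitor of Notch, stood at 19.3, 18.2 and 18.8 against 31.03, 26.2 and 32.5 CPM (-0.67, SE 0.09, adjusted p = 0.00111). Sox21 went from 12.8 ± 0.413 to 7.78 ± 0.885 CPM (-0.72, SE 0.11) and the coactivator gene Maml3 from 16.8 ± 1.38 to 11.6 ± 0.870 CPM (-0.54, SE 0.10). The target genes Hes1 and Heyl moved apart: Hes1 was at 0.52 (SE 0.13, adjusted p = 0.0357) and Heyl at -0.98 (SE 0.20, adjusted p = 0.0119), and Heyl was not called without lesioned library 1 or 3 (adjusted p = 0.0579 and 0.0534). The Notch falls numbered 3 without lesioned library 3 and 2 in the 4-library fit, in which Nrarp and Maml3 kept their calls and Sox21 (adjusted p = 0.0506) and Heyl (adjusted p = 0.0530) did not. No member of the list was called higher without lesioned library 1, 2 or 3 or control library 1 or 2.

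Of 29 BMP, Wnt and hedgehog genes 4 fell, none rose, and the median was -0.14. These were Id3, a BMP target (-0.45, SE 0.09), Nkd1, an inhibitor and target of Wnt (-0.37, SE 0.10), and Gli1 and Ptch1, targets of hedgehog (-0.94, SE 0.22, and -0.28, SE 0.06). Gli1 had 1.35, 1.72 and 1.32 CPM in lesioned and 2.53, 3.12 and 2.803 CPM in control libraries. The falls numbered 2, 1 and 0 without lesioned library 1, 2 and 3 and 2 without control library 3, and none was called without both libraries with olfactory bulb markers. Among precursors of oligodendrocytes 2 of 20 fell (Olig2 and Enpp6; median -0.11), with 1 member called lower without lesioned library 1 and none without lesioned library 2 or 3 or control library 3; Enpp6 was the 1 call in the 4-library fit. Among myelin genes 1 of 20 rose and 1 fell, and the median of -0.04 became 0.07 without lesioned library 2 and 0.06 without control library 3. The 4-library fit called 1 myelin gene higher and 2 lower.

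The genes Slco1c1 and Dio2, which serve the supply of thyroid hormone to the brain, fell. Slco1c1, on chr6:141524354-141570177, which carries thyroxine across the blood-brain barrier and into astrocytes, stood at 54.4, 56.5 and 53.6 CPM in lesioned and 79.4, 80.4 and 87.4 CPM in control libraries (-0.59, SE 0.06, adjusted p = 1.94e-04). Dio2, on chr12:90724552-90739038, the astrocyte deiodinase that makes the active hormone from thyroxine, stood at 100.1, 93.5 and 83.5 against 139, 148 and 131 CPM (-0.59, SE 0.07, adjusted p = 4.75e-04). Both were picked among genes whose groups do not overlap, so the gap between the groups follows from the choice. Of 21 thyroid hormone and retinoid genes 4 fell (with Nrgn and the retinaldehyde dehydrogenase gene Aldh1a1), against 2.28% called lower of all genes, none rose, and the median was -0.21. Crym, which binds thyroid hormone in the cytosol and is a deep layer marker, stood at 75.5, 70.1 and 78.02 against 94.6, 103 and 102 CPM (-0.42, SE 0.06, adjusted p = 0.00145). Aldh1a1 was the member whose call was lost without lesioned library 1, 2 or 3 or control library 2 or 3 (adjusted p between 0.0698 and 0.190). Slco1c1 and Dio2 were the 2 members called in the 4-library fit. Hormone levels were not measured.

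Of 20 tested endothelial and mural genes 3 fell (Cldn5, Slco1a4 and Rgs5), and the median was -0.10, or 0.03 without control library 3. The call of Rgs5 held in 4 of 19 alternatives and in no fit without 1 library, and it was lost with RLE or upper-quartile scaling, the replicate block and the GC and length correction. The tight junction gene Cldn5 went from 37.2 ± 2.68 to 26.9 ± 3.42 CPM (-0.46, SE 0.09) and the organic anion transporter gene Slco1a4 from 71.3 ± 3.33 to 57.3 ± 0.367 CPM (-0.31, SE 0.05). None of the 3 was called in the 4-library fit. Summed endothelial markers overlapped, with 135 to 142 CPM in lesioned and 137 to 154 CPM in control libraries. Of microglia genes 1 of 20 fell, the fractalkine receptor gene Cx3cr1 (-0.27, SE 0.06, median of the list -0.03), whose call was lost without lesioned library 1, 2 or 3 or control library 1 and in the 4-library fit. Of meningeal fibroblast genes 2 of 19 fell (Igfbp2 and Fn1; median -0.17), neither of them without lesioned library 1, 2 or 3 or in the 4-library fit, and 1 of them without control library 1 or 3. Of choroid plexus and hypothalamic genes edgeR called none of 10 and none of 11 (medians -0.01 and -0.08), with 1 and 2 at an unadjusted p below 0.05, and DESeq2 called 0 and 1.

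Lipid enzymes moved in both directions. Of 26 fatty acid genes 3 rose (Fads6, Fasn and Acaca), 5 fell (Elovl2, Elovl5, Fads2, Fabp7 and Pla2g3), and the median was -0.04. Elovl2, which elongates polyunsaturated fatty acids in astrocytes, stood at 13.8, 15.6 and 14.04 CPM in lesioned and 24.02, 19.8 and 21.3 CPM in control libraries (-0.59, SE 0.10, adjusted p = 0.00360) and was called without any single library. Fabp7, a fatty acid binding protein of radial glia and astrocytes, was highest in control library 1 (25.97, 16.2 and 18.5 CPM in controls, 11.8, 15.7 and 11.1 CPM in lesioned; -0.66, SE 0.17) and was not called without it (adjusted p = 0.105) or without lesioned library 1 or 3 (adjusted p = 0.122 and 0.140). Over the fits without 1 library the rises numbered 0 to 3 and the falls 2 to 4, with 2 falls without lesioned library 1 or 3 or control library 1. The 4-library fit and the GC and length correction each called no rise and 3 falls.

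Of 24 genes of cholesterol synthesis and its control 4 rose, among them Insig1 and Srebf2, none fell, and the median was 0.04. Insig1, the sterol sensor of the endoplasmic reticulum, went from 70.4 ± 5.37 to 86.9 ± 5.17 CPM (0.31, SE 0.07), and Srebf2, the master factor of the pathway, from 228 ± 7.04 to 263 ± 4.76 CPM (0.20, SE 0.04). None of the 4 was called without lesioned library 1, control library 1 or both libraries with olfactory bulb markers, and 1 without lesioned library 2 or 3.

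Genes of the respiratory chain were mostly slightly lower in value. Of 74 nuclear genes of the respiratory chain 66 were below 0, while 48.4% of all genes tested lay above 0, and 8 fell, against 2.28% of all genes (Ndufb9, Ndufc1, Uqcr11, Cox6b1, Cox6c, Atp5e, Atp5g1 and Atp5j2). The median was -0.10, or -0.06 with the correction for GC content and length. Cox6b1, a subunit of complex IV, went from 146 ± 10.3 to 122 ± 4.59 CPM (-0.26, SE 0.06), and Ndufc1, of complex I, from 28.2 ± 1.202 to 22.2 ± 1.16 CPM (-0.34, SE 0.07). None of these 74 was called without lesioned library 1, 2 or 3, and 5 and 2 without control library 1 and 3. In the 4-library fit Cox6b1 alone was called. Of 77 cytosolic ribosomal protein genes only Rps2 was called, lower, and the median was -0.04, or 0.01 with the correction. Without control library 2 there were 2 ribosomal calls, and none without any other single library or in the 4-library fit. Ribosomal protein genes have many processed copies in the genome, which makes their counts uncertain.

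Of 31 heat shock and unfolded protein response genes Dnajb5 rose and 4 fell, which were the endoplasmic reticulum chaperone genes Hspa5, Dnajc3, Pdia4 and Sdf2l1 (median of the list -0.04). Pdia4, a disulfide isomerase, stood at 33.2, 33.8 and 30.1 CPM in lesioned and 40.7, 44.3 and 42.4 CPM in control libraries (-0.39, SE 0.07, adjusted p = 0.00565). It was the 1 fall called without lesioned library 1, 2 or 3, or in the 4-library fit, and there were 2 without control library 1 or 2. Dnajb5 was not called without lesioned library 1 or 2 or control library 2, or in the 4-library fit. Of 25 oxidative stress and Nrf2 genes Txnrd1 and Prdx1 fell (median -0.07), neither of them without lesioned library 2 or 3 or in the 4-library fit, and 1 without any other single library.

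Of 31 tested interferon-stimulated genes 2 rose, Ifit3 and Ifit3b, beside 3.45% called higher of all genes. They are neighbouring copies that encode antiviral proteins with tetratricopeptide repeats. Their promoters are shown because both hold the same pair of interferon-stimulated response elements (ISRE), here read on the gene's strand in the reverse orientation and in capitals (RefSeq, GRCm38.p6, 5′ to 3′).
Ifit3, chr19:34583359-34583429, plus strand: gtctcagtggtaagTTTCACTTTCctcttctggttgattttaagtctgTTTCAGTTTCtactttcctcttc
Ifit3b, chr19:34607757-34607827, plus strand: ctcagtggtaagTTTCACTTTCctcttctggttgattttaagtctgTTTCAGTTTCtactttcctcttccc
The element occurs on either strand in 2.98% of 32851 promoters within 250 bases before the start, and it is given here as a description of the sequence.

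Ifit3 stood at 7.75, 8.02 and 8.75 CPM in lesioned and 4.099, 5.75 and 3.85 CPM in control libraries (0.84, SE 0.16, adjusted p = 0.00810), and Ifit3b at 4.35, 4.41 and 5.81 against 2.48, 2.57 and 2.35 CPM (0.97, SE 0.18, adjusted p = 0.00794). All lesioned libraries lay above all controls in both, and Ifit3 was picked among genes for which this holds. The genes are near copies, so that reads may be divided between them and they do not count as separate evidence. Of the 31 interferon genes 25 were above 0, against 48.4% of all genes tested, and the median was 0.23. Isg15 was at 1.07 ± 0.280 against 0.886 ± 0.111 CPM (0.29, SE 0.31), Irf7 at 0.65 (SE 0.31) and Ifit1 at 0.13 (SE 0.24), none of them called. Both calls were lost without both libraries with olfactory bulb markers (adjusted p = 0.0920 and 0.0546).

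Markers of upper layer excitatory neurons were called in both directions. Of 16 tested Cux1 and Unc5d rose and Lhx2, Mdga1 and Inhba fell, or 31.2% against 5.73% of all genes. The groups did not overlap in 12 of the 16, against 25.5% of all genes tested. The median was 0.00, with quartiles of -0.22 and 0.19. There were 1 rise and 1 fall without lesioned library 1 or 3, and 1 rise and 2 falls without lesioned library 2 and in the 4-library fit. Of 19 deep layer markers Pcp4 and Crym fell (median -0.01), in every fit without 1 library and in the 4-library fit. Of 23 interneuron markers Erbb4 and Kcnc1 rose (median 0.03), neither with the GC and length correction or in the 4-library fit and 1 without lesioned library 1, 2 or 3 or control library 1. Of 25 neurotrophin and growth factor genes Gfra2 and Erbb4 rose (median -0.02), neither without lesioned library 2 or 3 or control library 1 or in the 4-library fit, and 1 without control library 3. Of 25 neuropeptide and granin genes Pcsk2 rose (median -0.02), and it was not called without lesioned library 2 or 3 or in the 4-library fit. Of 19 adrenergic and serotonin receptor genes the serotonin receptor gene Htr1b fell (-0.47, SE 0.11, adjusted p = 0.0218; median of the list 0.08), with 11.6, 11.7 and 12.1 CPM in lesioned and 14.1, 17.4 and 17.9 CPM in control libraries, and it kept its call in 1 of the 6 fits without a library, that without control library 1, and in the 4-library fit. Of 2 tested nuclear long non-coding RNAs edgeR and DESeq2 called 0, with 0 at an unadjusted p below 0.05 (median -0.02).

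Genes proposed as ADHD candidates from human genetics, a list of which 21 were tested, included 6 rises (Snap25, Ptprf, Dusp6, Sorcs3, Pcdh7 and Git1) and 1 fall (Htr1b), against 3.45% called higher and 2.28% called lower of all genes, with a median of 0.11. Git1, an adaptor of G protein-coupled receptor kinases, stood at 440.1, 465 and 429 CPM in lesioned and 378, 377 and 376 CPM in control libraries (0.24, SE 0.04, adjusted p = 0.00761), and Snap25, a SNARE protein of synaptic vesicle fusion, at 2828, 2872 and 3074 against 2526, 2760.2 and 2495 CPM (0.17, SE 0.05, adjusted p = 0.0481). Adgrl3 (0.19, SE 0.06, adjusted p = 0.0791) and Cdh13 (-0.21, SE 0.06, adjusted p = 0.0645) did not pass the test. The rises numbered 3, 0 and 2 without lesioned library 1, 2 and 3, and 2 and 3 without control library 1 and 3. No rise was called without both libraries with olfactory bulb markers. With the GC and length correction 3 of the list rose, and Pcdh7 was not called.

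**Figure D4:**
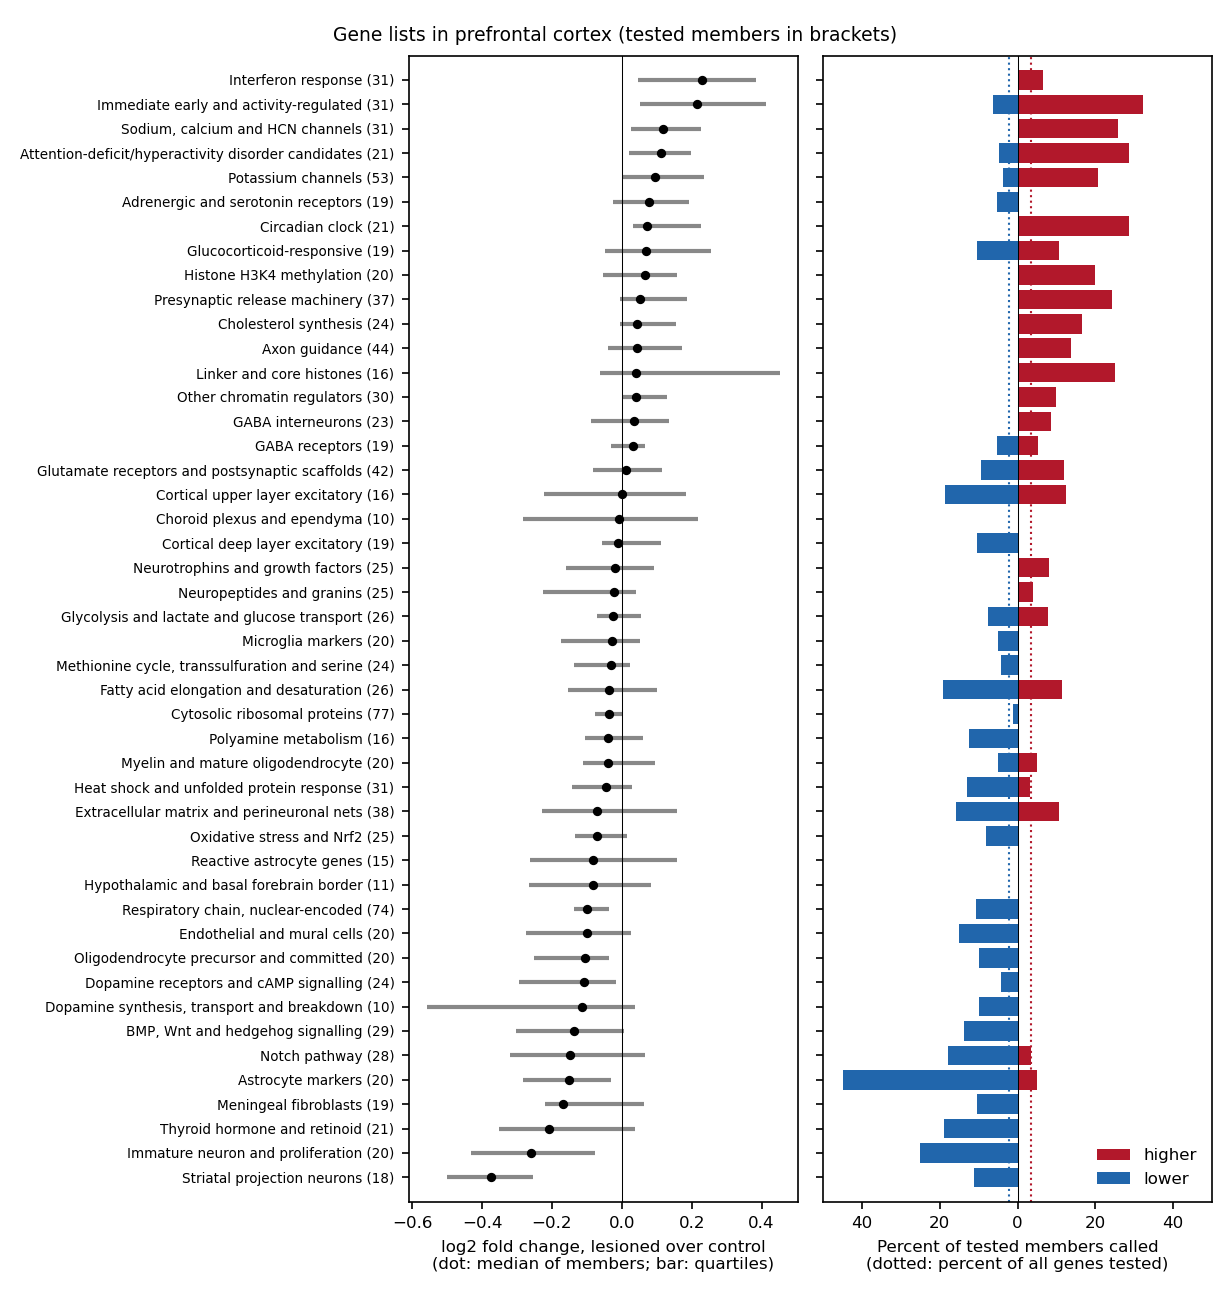
For each gene list, with the number of tested members in brackets, the left panel gives the median and quartiles of the log2 fold change (lesioned over control) and the right panel the percent of members called higher (red) or lower (blue). Dotted lines are the shares of all genes tested, 3.45% higher and 2.28% lower. Activity-regulated genes, with 10 of 31 called higher, and astrocyte markers, with 9 of 20 called lower, stand furthest from these lines.

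In striatum most of the genes called in prefrontal cortex had a log2 fold change of the same sign. The labels do not say whether both regions came from the same mice. Of the 484 genes that rose in prefrontal cortex, 381 (78.7%) had a log2 fold change above 0 in striatum, with a median of 0.18. Of the 319 that fell, 249 lay below 0 in striatum, with a median of -0.21. Over all genes 50.3% lay above 0 there. The spread between striatal libraries was larger, with a biological coefficient of variation of 14.9%, and edgeR called 4 genes in the 6 striatal libraries alone.

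**Figure D5:**
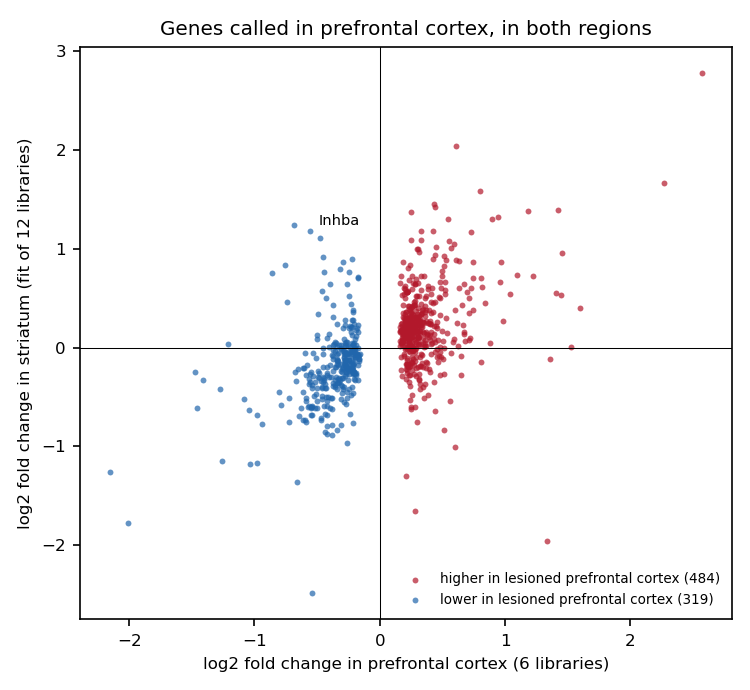
Log2 fold change, lesioned over control, in prefrontal cortex (horizontal) and in striatum (vertical) for the 803 genes called in prefrontal cortex; red points rose and blue points fell in prefrontal cortex. Most points lie in the lower left and upper right quadrants (249 of 319 falls, 381 of 484 rises), and Inhba, the gene with a called difference between regions, lies in the upper left.

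The difference between the lesion effects was tested by an interaction over all 12 libraries, which called 12 of 14545 genes (0.0825%). Only 1 of the 803 prefrontal genes was among them: Inhba, which encodes the activin A subunit, a growth factor of the TGF-beta family. In prefrontal cortex it stood at 8.998, 11.9 and 10.5 CPM in the lesioned and 14.9, 16.2 and 14.8 CPM in the control libraries (-0.55, SE 0.11, adjusted p = 0.0126). In striatum its counts were 346, 241 and 312 in lesioned and 101, 146 and 173 in control libraries (log2 fold change 1.18, SE 0.19). The effects differed by -1.72 on the log2 scale (SE 0.26, adjusted p = 0.0393 by edgeR). The prefrontal fall missed the threshold without lesioned library 1 or 3 (adjusted p = 0.0631 and 0.0544). The count of such differences was 3, 2 and 1 without prefrontal lesioned library 1, 2 and 3, and 0, 0 and 4 without prefrontal control library 1, 2 and 3. It was 172 without striatal lesioned library 2 and 6 without striatal control library 1.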

How the data were processed

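Poly(A) mRNA of 6 prefrontal and 6 striatal libraries of C57BL/6J mice was sequenced in pairs of reads. Per the submitters' processing notes, reads were aligned to mm10 with STAR 2.7.1a and assigned to genes with featureCounts, and the authors deposited whole-number counts per gene symbol with no normalization. No source used here states which annotation was taken, whether strand was used, or how reads matching several genes were handled.

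Of 21872 symbols, 3732 were at 0 throughout, and 1830 had values that were all multiples of 11. The latter were the genes at 0 in lesioned prefrontal library 1, held 0.0461% of the counts and were dropped. From the deposited counts of the 6 prefrontal libraries, 14018 genes passed filterByExpr and were fitted with TMM factors and the quasi-likelihood test of edgeR 4.0.16 (R 4.3.3; 4 residual degrees of freedom), with Benjamini-Hochberg adjustment over all of them. A gene was called at an adjusted p below 0.05. CPM are counts scaled to a common library total with TMM factors, and the SE is the log2 fold change divided by the square root of F. Fold changes are lesioned over control. Library totals of 15078631 to 20925452 set the floor of 3 counts at 0.143 to 0.199 CPM, and the script was tested on simulated data.

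Named genes were, among called genes with a mean of 5 CPM or more, groups that do not overlap and a regular gene name, the 15 with the largest fold change and the 10 with the smallest p per direction. Up to 4 genes per list with the smallest p, the dopamine genes and up to 10 genes that differed between regions were added. Others named beside a list were chosen for their known role after their values were seen. A few genes that the rule names, or that a list counts, are not reported here by name. The members and the 47 gene lists were chosen with earlier results of these data known. Positions and promoters are from RefSeq, GRCm38.p6 (21314 symbols matched), and transcript lengths and GC contents from GENCODE. Alternatives were other scaling (RLE, upper quartile), other filters, DESeq2 1.42.0, limma 3.58.1 (voom), a fit of all 12 libraries, a replicate block, a correction for GC content and length (mgcv 1.9.3), the dropped rows kept, and leaving out each library.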

Additional observations from a re-analysis of the deposited data

Results flagged for a closer look

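The lesion effect differed between the regions, by the interaction test of edgeR over all 12 libraries with Benjamini-Hochberg adjustment, for the following genes among the 12 called. Inhba, the activin A subunit, had a difference of -1.72 on the log2 scale (prefrontal minus striatal effect, adjusted p = 0.0393) and was the member of the 803 prefrontal calls. The differences of Fmod and Ogn, small proteoglycans of fibroblasts, were 2.22 (adjusted p = 0.0125) and 1.82 (adjusted p = 0.0393), with striatal log2 fold changes of -2.43 and -1.98. Slc6a13, a GABA transporter of meninges and vessels, had a difference of 1.67 (adjusted p = 0.0378) and a striatal log2 fold change of -1.49. Fmod, Ogn and Slc6a13 were not called in prefrontal cortex. Summed meningeal markers stood at 8.82, 13.7 and 13.3 CPM in lesioned and 25.4, 36.5 and 25.2 CPM in control striatum, against 33.8, 47.1 and 30.1 CPM in lesioned and 29.6, 29.6 and 42.7 CPM in control prefrontal cortex. Their part in these differences was not tested.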

How the results depend on the processing

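None of the 152 named calls changed direction under any alternative run. Some list medians near 0 changed sign. With the GC and length correction this held for other chromatin regulators (0.04 to -0.02), glutamate genes (0.01 to -0.04) and ribosomal protein genes (-0.04 to 0.01). With 1 library left out it held, among others, for myelin, reactive astrocyte and endothelial genes. The 803 prefrontal calls numbered 634 to 896 under RLE or upper-quartile scaling, other filters, DESeq2, limma-voom, a robust fit, the replicate block, the GC and length correction, and the dropped rows kept. They fell to 30 in the fit of all 12 libraries, to 34 when tested against a fold change of 1.2, to 150 without both libraries high in olfactory bulb markers, and to 195 to 1010 when 1 library was left out. The last count was the only one of these above 803. Fewer libraries enter the fits that leave libraries out; otherwise the cause was not tested. The removal of both libraries was chosen after seeing the data. List members called numbered 182, with 18 in the fit of all 12 libraries and 71 to 211 with 1 library left out. The 12 differences between regions became 86 with sample quality weights (limma-voom), 6 with the replicate block, and 0 to 172 with 1 library left out. Of 152 named calls, 78 were kept without any single library and 54 also without both olfactory-high libraries and with the GC and length correction. The fit of all 12 libraries kept 21 of the 152.

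A pairing of the samples by replicate number was not seen in their deviations from the group mean. Same-numbered lesioned and control libraries had correlations of these deviations of 0.06, -0.06 and -0.09, and no library correlated best with its own number. With 3 libraries a group, and border tissue markers that differed between single libraries, these values cannot decide whether samples were paired. With the replicate block 634 genes were called, 606 of them among the 803, and 803 with block and GC and length correction together. With 3 libraries a group, depth and number limit genes of few counts, such as Slc6a3 and Drd4, for which no difference was detectable at this depth.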
